A study of Mus musculus with 2 samples.

Results

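A set of 10 genes of the network-forming, multiplexin and anchoring collagens was followed in cultured mouse cardiac myofibroblasts with and without knockdown of Vgll3. They were taken by symbol from the deposited gene tables as Col4a1, Col4a2, Col4a3, Col4a5, Col4a6 (type IV), Col7a1 (type VII), Col8a1, Col8a2 (type VIII), Col15a1 (type XV) and Col18a1 (type XVIII). These are 10 of the 24532 genes in the count table, which holds 34 other collagen genes, among them Col4a4.

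The cells came from hearts of C57BL/6 mice (C57BL/6J in the methods of the study) 3 days after myocardial infarction and were the attached, CD45-negative cells left after magnetic sorting. The culture medium was DMEM with 10% FBS. The cells were transfected by Lipofectamine RNAiMAX with 12.5 nM of a control siRNA (siCtrl) or of 1 siRNA against Vgll3 (siVgll3), and mRNA was sequenced after 72 h. Vgll3 encodes a nuclear cofactor of TEAD transcription factors, and the comparison asks which transcripts differ when it is reduced. There was 1 library per condition, so no difference below has a replicate check or a p-value within these libraries. Whether the RNA came from 1 or several mice is not given in the sources used here. By qRT-PCR in such cells, the study reports lower Col1a1, Col1a2, Col6a1, Col14a1 and Postn after Vgll3 knockdown. Those genes lie outside the set followed here.

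Type IV collagen forms the sheet-like network of basement membranes. Its α1 and α2 chains are found in almost all of them, and the α3 to α6 chains are limited to some tissues. Type VIII collagen builds short-chain lattices beneath endothelium and in injured vessel walls. The multiplexins, types XV and XVIII, lie in or next to basement membranes as proteoglycans, and their C-terminal ends can be released as restin and endostatin. Type VII collagen makes the anchoring fibrils that hold epithelial basement membranes to the stroma beneath.

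A microRNA family, miR-29, is known for targeting collagen mRNAs, and its seed, bases 2 to 8 of the mature strand, is the part that pairs with a 3′ UTR. The 3 mature sequences are shown because the 3′ UTRs of most of these collagen genes hold the matching letters. They are from RefSeq (GRCm38.p6), written 5′ to 3′ with the seed in capitals.
mmu-miR-29a-3p: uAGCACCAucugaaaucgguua
mmu-miR-29b-3p: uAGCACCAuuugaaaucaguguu
mmu-miR-29c-3p: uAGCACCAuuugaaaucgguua
All 3 share 1 seed, and its match in a 3′ UTR is TGGTGCT in DNA letters. The levels of miR-29 were not measured in these mRNA libraries. By qRT-PCR, the study reports higher miR-29b and miR-29a in cardiac myofibroblasts after Vgll3 knockdown. It also examined miR-29c, which it does not name among those significantly changed.

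Examples of the matches follow, among them all 3 of Col4a5, with 15 bases before and 1 base after. The match is in capitals, the coordinates are those of GRCm38 (mm10), and each site is exonic, in the 3′ UTR of the GENCODE vM21 transcript with the longest coding sequence.
Col4a1, chr8:11199761-11199783, minus strand: gccaccgtcacaacaTGGTGCTa
Col4a2, chr8:11448344-11448366, plus strand: gtgggaaggccacgtTGGTGCTt
Col4a5 first site, chrX:141688238-141688260, plus strand: cactgctcccaccaaTGGTGCTa
Col4a5 second site, chrX:141688519-141688541, plus strand: aagtattctttttcaTGGTGCTa
Col4a5 last site, chrX:141688942-141688964, plus strand: taattcttattattcTGGTGCTa
Col7a1, chr9:108984580-108984602, plus strand: ctgctgtgctccattTGGTGCTa
Col8a1, chr16:57624705-57624727, minus strand: ctgtatattctaccaTGGTGCTa
Col15a1, chr4:47312485-47312507, plus strand: atccaatccacatatTGGTGCTa
In all but the Col4a2 example an A follows the match, opposite the first base of the microRNA, which makes an 8-base match.

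The libraries held 140815237 reads counted on genes for siCtrl and 125789276 for siVgll3. Levels are given as TPM, a value normalised to transcript length and to the size of the library, so levels of different genes can be compared. M is the log2 ratio of siVgll3 TPM to siCtrl TPM, and A is the log2 of their mean. The interval after each M is the 95% exact (Clopper-Pearson) interval of the 2 read counts. It covers counting error only, since sequenced PCR copies are not independent molecules and spread between cultures was not measured. A gene is called lower at M below −0.5 and higher at M above 0.5, in either case with A above 0. By these rules 11.4% of the 11754 genes with A above 0 were lower and 5.73% were higher, and the median M of all 11754 was −0.05. Vgll3 itself was at 202 TPM in siCtrl against 84.0 TPM in siVgll3, an M of −1.27 [−1.29, −1.24].

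M was below 0 for 7 of the 8 genes with A above 0, beside 57% of all genes with A above 0, but the size of the difference varied widely. Of these 8, 4 (50%) were lower, namely Col4a6, Col8a1, Col15a1 and Col18a1, against the 11.4% of all genes. Col7a1 alone (12.5%) was higher, against 5.73% of all genes, and Col4a1, Col4a2 and Col4a5 lay between the thresholds with M below 0. The median M of the 8 was −0.56. Of the remaining pair, Col8a2 had an M far below −0.5 and Col4a3 an M near 0, both at A below 0. Over all 14149 genes with an M and no limit on A, 14.9% lay below −0.5 and 10.1% above 0.5. By that count 5 of the 10 collagens lay below −0.5 and 1 above 0.5, and their median was again −0.56.

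**Figure D1:**
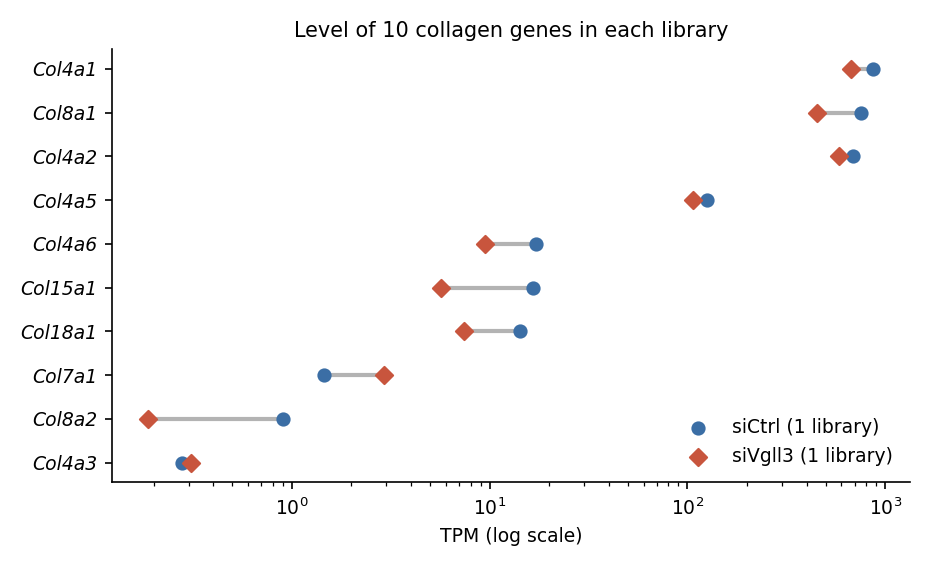
TPM of each of the 10 collagen genes (rows) in the siCtrl library (blue circles) and the siVgll3 library (red diamonds), on a log axis, with a grey line joining the pair of values. The red diamond is to the left for 8 genes, and only Col7a1 and Col4a3 have it to the right.

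The levels spanned 3152-fold in siCtrl, from Col4a1 at 872 TPM to Col4a3 at 0.277 TPM. Col4a1, Col4a2 and Col8a1 together made up 92.9% of the TPM of the 10 genes in siCtrl and 92.8% in siVgll3. The summed TPM of the 10 was 2486 in siCtrl and 1833 in siVgll3, an M of −0.44 [−0.44, −0.44]. As a share of the TPM of all collagen genes it was 14.1% in siCtrl and 17.0% in siVgll3. The TPM of all collagen genes together was 17655 in siCtrl and 10763 in siVgll3.

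The type IV pair that makes the common α1α1α2 trimer was abundant in both libraries. Col4a1 (chr8:11198423-11312889, minus strand, 52 exons in the transcript used) had 368209 reads in siCtrl and 260860 in siVgll3. Its level was 872 TPM in siCtrl, 177th among genes, and 667 TPM in siVgll3, 230th among genes. M was −0.39 [−0.39, −0.38], so the difference was larger than counting error but short of the threshold, and 16.3% of genes with A above 0 had a lower M.

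Col4a2 (chr8:11312805-11449287, plus strand) had 282040 reads in siCtrl and 221467 in siVgll3. Its level was 685 TPM in siCtrl against 581 TPM in siVgll3, an M of −0.24 [−0.25, −0.23]. The ratio of the pair differed between the libraries by more than counting error, and spread between cultures was not measured. The Col4a1 to Col4a2 ratio of TPM was 1.27 [1.27, 1.28] in siCtrl and 1.15 [1.14, 1.16] in siVgll3, and M of Col4a1 was lower than that of Col4a2 by a difference of −0.15 [−0.16, −0.14]. The genes lie head to head and their 5′ ends overlap by 85 bases in the RefSeq annotation. The strand setting used for counting is not stated, so reads in that overlap may have been counted for either gene.

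Col4a5 and Col4a6, which encode the α5 and α6 chains of a trimer found in smooth muscle and some epithelia, also lie head to head, with 1274 bases between them on chromosome X. Col4a5 (chrX:141475370-141689236, plus strand) had 51725 reads in siCtrl and 40783 in siVgll3, or 125 TPM and 107 TPM. Its M was −0.23 [−0.25, −0.21]. The difference between its M and that of Col4a2 was 0.01 [−0.01, 0.03], so these neighbours in the order could not be told apart by counting error.

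Col4a6 (chrX:141165403-141474095, minus strand) was a minor partner with 7309 reads in siCtrl and 3703 in siVgll3. It was at 17.2 TPM in siCtrl against 9.43 TPM in siVgll3, an M of −0.87 [−0.93, −0.81], and 4.42% of genes with A above 0 had a lower M. The Col4a5 to Col4a6 ratio of TPM was 7.26 [7.08, 7.44] in siCtrl and 11.3 [10.9, 11.7] in siVgll3. Of this divergent pair, Col4a6 passed the threshold and Col4a5 did not, and their M values differed by 0.64 [0.58, 0.70].

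Col4a3, a chain of the kidney and lung basement membranes, was close to absent. It had 153 reads in siCtrl and 158 in siVgll3, or 0.277 TPM and 0.310 TPM, and its M of 0.17 [−0.16, 0.50] was within counting error of 0. Its partner Col4a4 had 195 reads in siCtrl and 148 in siVgll3, with an M of −0.29 [−0.61, 0.03], which was also within counting error. These genes overlap by 114 bases at their 5′ ends on chromosome 1, with the same limit on strand. The 5 type IV genes together were at 1699 TPM in siCtrl against 1365 TPM in siVgll3, an M of −0.32 [−0.32, −0.31], and their share of the TPM of the 10 genes was 68.3% in siCtrl and 74.5% in siVgll3.

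**Figure D2:**
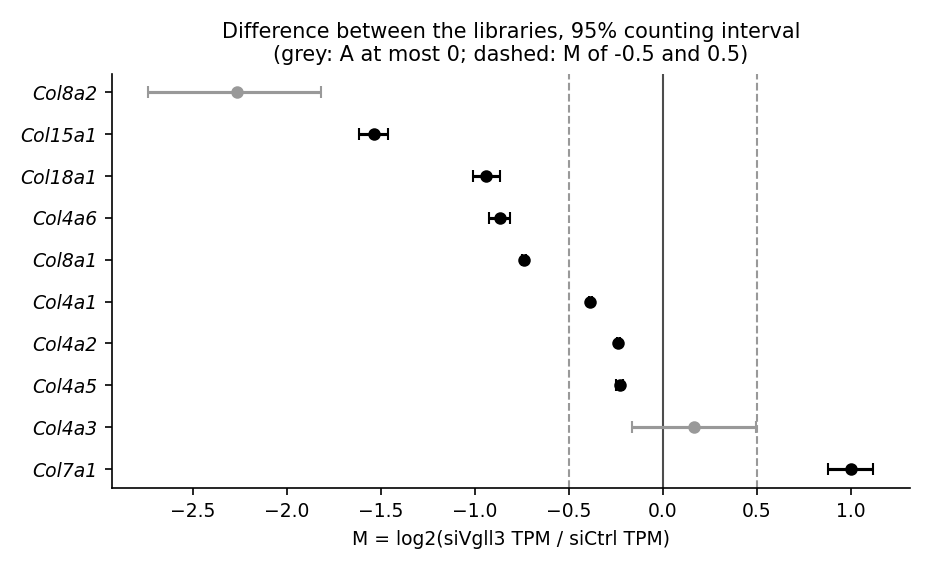
M of each gene with its 95% counting interval (bars), ordered from the lowest at the top to Col7a1 at the bottom, with A at most 0 in grey. The whole interval lies below −0.5 for Col8a2, Col15a1, Col18a1, Col4a6 and Col8a1 and above 0.5 for Col7a1, and the grey bar of Col4a3 crosses 0.

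Of the type VIII collagens, Col8a1 was among the most abundant transcripts, 204th in siCtrl. Col8a2 was at a low level, 11845th in siCtrl and 13137th in siVgll3 among the 14158 genes with TPM. Col8a1 (chr16:57624256-57754737, minus strand, 4 exons in the transcript used) had 245953 reads in siCtrl and 136290 in siVgll3. Its level was 754 TPM in siCtrl against 451 TPM in siVgll3, an M of −0.74 [−0.75, −0.73]. In siCtrl it stood above Col4a2 in TPM, and in siVgll3 below it. It was the only gene of the abundant 3 past the threshold.

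Col8a2 (chr4:126286794-126314330, plus strand) encodes the α2 chain, whose mutation is known from corneal endothelial dystrophy. It had 250 reads in siCtrl and 49 in siVgll3, or 0.904 TPM and 0.188 TPM. The M of −2.27 [−2.74, −1.82] was the lowest of the 10, at an A of −0.87 that left it outside the called genes. The Col8a1 to Col8a2 ratio of TPM was 834 [737, 948] in siCtrl and 2402 [1816, 3246] in siVgll3.

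The multiplexins were both at modest levels and both lower in siVgll3. Col15a1 (chr4:47207655-47313167, plus strand) had 5624 reads in siCtrl and 1791 in siVgll3. It was at 16.6 TPM in siCtrl against 5.70 TPM in siVgll3, an M of −1.54 [−1.62, −1.46]. This left 34.4% of the siCtrl level, and 1.10% of genes with A above 0 had a lower M.

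Col18a1 (chr10:77052178-77166530, minus strand) had 4813 reads in siCtrl and 2327 in siVgll3. Its level was 14.3 TPM in siCtrl against 7.44 TPM in siVgll3, an M of −0.94 [−1.01, −0.87]. Its M differed from that of Col4a6 by −0.07 [−0.16, 0.02], within counting error. The order of the multiplexins inverted, with a Col15a1 to Col18a1 ratio of TPM of 1.16 [1.12, 1.21] in siCtrl and 0.766 [0.720, 0.815] in siVgll3. Their sum was 30.8 TPM in siCtrl against 13.1 TPM in siVgll3, an M of −1.23 [−1.28, −1.18], against −0.32 for the summed type IV genes.

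Endothelial cells and pericytes are known sources of type IV, XV and XVIII collagen, so their markers were set beside these values. All 11 endothelial markers had reads, and their summed TPM was 35.9 in siCtrl and 32.9 in siVgll3. Pecam1 was at 1.89 TPM in siCtrl against 2.61 TPM in siVgll3, Cdh5 at 2.13 TPM and 3.01 TPM, and Tek, the highest of the list, at 19.5 TPM and 13.4 TPM. The 9 pericyte and smooth muscle markers summed to 118 TPM in siCtrl against 115 TPM in siVgll3, most of it Mcam (94.9 TPM and 102 TPM), with Higd1b at 0 reads in both. Each sum leaned on its highest gene. Without Mcam the pericyte and smooth muscle sum was 23.4 TPM in siCtrl against 12.6 TPM in siVgll3, a log2 ratio of −0.89. Notch3 was at 14.1 TPM and 7.97 TPM and Des at 7.22 TPM and 3.11 TPM. The median M of the 3 genes of that list with A above 0 was −0.82. At A below 0, M was −1.43 for Myh11, −0.34 for Cspg4 and −0.21 [−0.59, 0.17] for Rgs5. Abcc9 (6 and 20 reads) and Kcnj8 (0 and 24 reads) went the other way. Without Tek the endothelial sum was 16.4 TPM in siCtrl against 19.5 TPM in siVgll3, but Tek was not alone in being lower. Of the endothelial genes with A below 0, M was −0.66 for Flt1, −0.52 for Erg and −0.51 for Vwf. It was −0.04 [−0.41, 0.32] for Tie1 and 0.97 for Kdr. The part of endothelial cells and pericytes in the results was not tested. In a bulk sample fewer cells of a type and less RNA per cell cannot be told apart.

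Col7a1 was the one gene of the 10 that was higher in siVgll3 by more than counting error. Col7a1 (chr9:108953586-108984875, plus strand, 118 exons in the transcript used) had 857 reads in siCtrl and 1585 in siVgll3. It was at 1.46 TPM in siCtrl against 2.91 TPM in siVgll3, an M of 1.00 [0.88, 1.12], and 98.2% of genes with A above 0 had a lower M. Its level was low in both libraries, with an A of 1.13.

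The other genes of the anchoring complex, which links epithelial cells through hemidesmosomes to the anchoring fibrils, did not share one direction. Of 9 genes, 5 had A above 0, of which 1 was higher and 0 were lower, with a median M of 0.12. Cd151 (425 TPM and 522 TPM), Plec (37.3 TPM and 40.5 TPM) and Dst (11.0 TPM and 8.29 TPM, the lowest M at −0.41) stayed between the thresholds.

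Epithelial and mesothelial markers differed in both directions beside Col7a1. The list of 9 summed to 44.1 TPM in siCtrl against 39.9 TPM in siVgll3, and without Upk3b to 12.5 TPM against 30.04 TPM. Krt19 was at 2.86 TPM in siCtrl against 16.8 TPM in siVgll3 and Msln at 1.58 TPM and 5.93 TPM, while Upk3b was at 31.6 TPM and 9.89 TPM. The M of Krt8 (−0.20 [−0.42, 0.03]) and of Krt18 (−0.12 [−0.33, 0.09]) was within counting error of 0. The epithelial genes Krt5 (0 reads in both), Epcam (6 and 0 reads) and Cdh1 (3 and 0 reads) were at or near 0, and Krt14 had 38 and 37 reads. The part of such cells in the Col7a1 value was not tested.

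**Figure D3:**
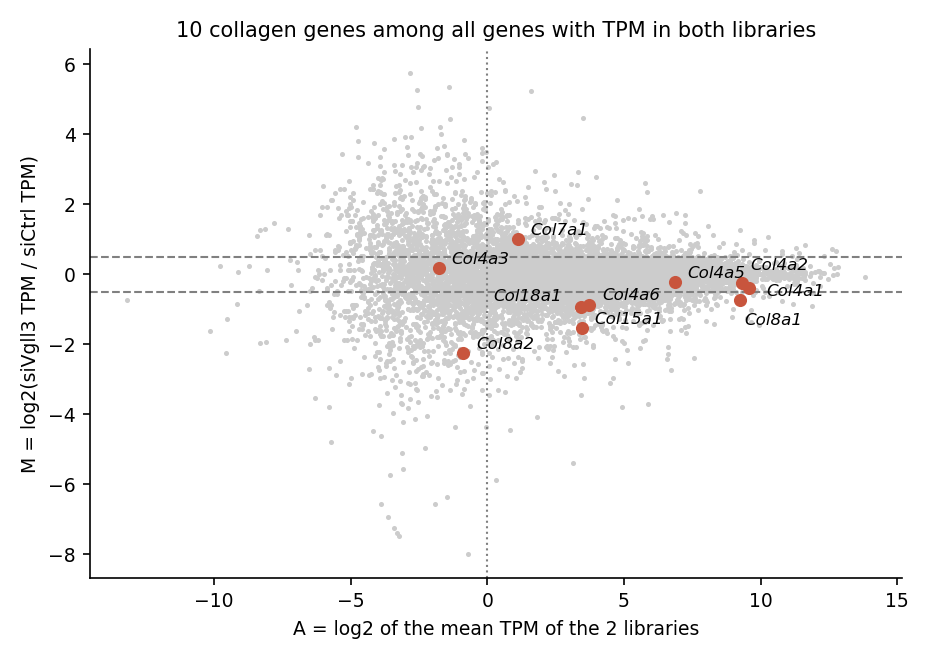
M against A for the 14149 genes with an M (grey) and the 10 collagen genes (red), with dashed lines at M of −0.5 and 0.5 and a dotted line at A of 0. Col4a1, Col4a2 and Col8a1 sit at the high end of A, Col15a1, Col18a1 and Col4a6 lie near each other at A between 3.44 and 3.74, and Col4a3 and Col8a2 are left of the dotted line.

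The other collagens of the count table were lower as a rule. Of 34, 15 had A above 0, all 15 had M below 0, 12 were lower, 0 were higher, and the median M was −0.90. The fibrillar chains led in level, with Col1a1 at 4918 TPM in siCtrl against 2631 TPM in siVgll3 (M −0.90), Col1a2 at 4585 TPM and 3179 TPM (M −0.53) and Col3a1 at 2980 TPM and 1644 TPM (M −0.86). The lowest M was that of Col14a1 (−2.08) and the highest that of Col5a2 (−0.44). The M of Col4a1, Col4a2 and Col4a5 was thus above that of every other collagen with A above 0, and the M of Col4a6, Col8a1, Col15a1 and Col18a1 was within the range of the other collagens.

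The proteins that share the basement membrane with type IV collagen had a median M of −0.48 over the 19 of 26 genes with A above 0, of which 9 were lower and 2 higher. Sparc, a type IV collagen-binding glycoprotein, was at 2860 TPM in siCtrl against 2356 TPM in siVgll3 (M −0.28). Fbln2 (fibulin-2) was at 2001 TPM and 2327 TPM (M 0.22), and Nid1, which bridges laminin and type IV collagen, at 616 TPM and 647 TPM (M 0.07). The lowest M was that of the laminin α5 chain gene Lama5 (−1.17) and the highest that of Tinagl1 (1.18), at 88.6 TPM and 201 TPM. The 3 genes of the list with the highest levels thus lay between the thresholds, as did Col4a1 and Col4a2.

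Enzymes that cross-link and process collagen had a median M of −0.13 over 12 of 13 genes, with 5 lower and 0 higher. The lowest was Pxdn, the peroxidasin that forms the sulfilimine cross-links of type IV collagen, at 121 TPM in siCtrl against 47.7 TPM in siVgll3 (M −1.35), a larger difference than that of Col4a1, Col4a2 or Col4a5. Lox (1252 TPM and 1138 TPM, M −0.14) and Loxl1 (463 TPM and 470 TPM, M 0.02), lysyl oxidases of fibrillar collagen and elastin, lay near 0. Of the other lysyl oxidase genes, Loxl2 (405 TPM and 283 TPM, M −0.52) and Loxl3 (155 TPM and 97.0 TPM, M −0.68) were lower. Loxl4 had an M of 0.15. The procollagen C-proteinase enhancer Pcolce was lower (1016 TPM and 680 TPM, M −0.58), and Pcolce2 had the highest M of the list at 0.41.

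Genes for folding and export of collagen had a median M of −0.30 over 21 of 23 genes, with 6 lower and 0 higher, from P4ha3, a prolyl 4-hydroxylase subunit (M −1.01), to Serpinh1, the collagen chaperone HSP47 (M 0.43), with P4hb at −0.33 and Ppib at −0.18. Collagen receptors had a median M of −0.58 over 7 of 11 genes, with 4 lower and 0 higher, from Itga11 (M −1.86) to Ddr2 (M 0.11), with the shared integrin chain Itgb1 at −0.13, the endocytic receptor Mrc2 at −0.58 and Ddr1 at 0.00. Proteases and their inhibitors had a median M of −0.24 over 10 of 17 genes, with 3 lower and 1 higher, from Mmp15 (M −0.87) to Timp1 (M 0.67), with Timp3 at 0.10 and Ctsl at 0.41.

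**Figure D4:**
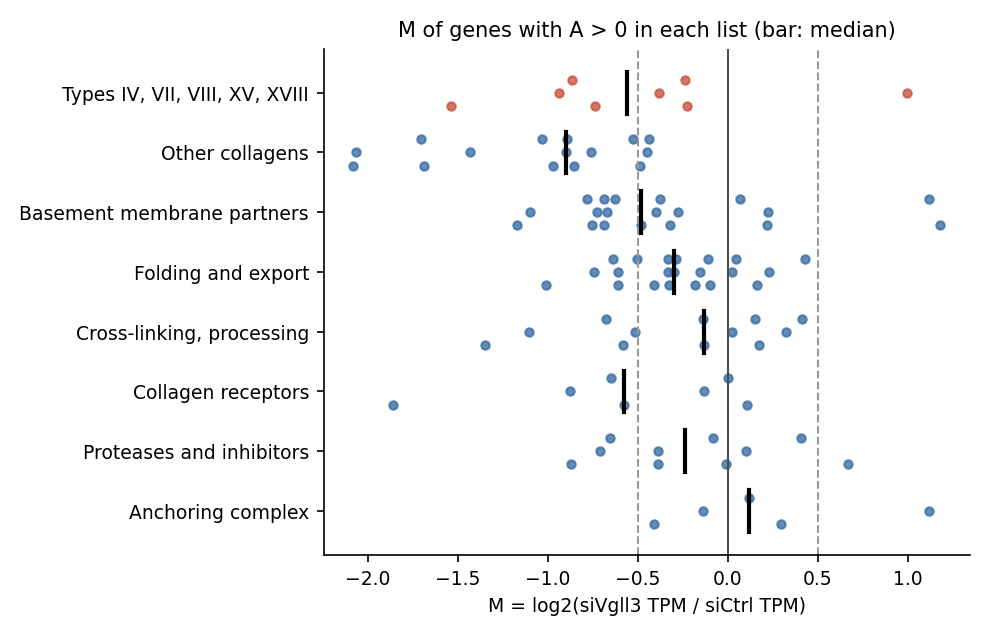
M of every gene with A above 0 in each list (points, spread vertically for legibility) with the median of the list (black bar) and dashed lines at −0.5 and 0.5. The 8 collagens of types IV, VII, VIII, XV and XVIII (red) run from −1.54 to 1.00, while the 15 other collagens all lie below 0.

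The 3′ UTRs of 8 of the 10 genes held at least 1 match to the miR-29 seed, and 7 of the 8 genes with A above 0 did. Over the 11278 genes with A above 0 and a 3′ UTR, 14.3% held a match, and 24.7% of those with a 3′ UTR longer than 1212.5 nt, the median of the 10 genes. Of the other collagens, 9 of 14 held one. The 10 genes held 15 matches in all, of which 8, in 6 genes, were of the 8-base kind.

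The genes with 2 or more matches (Col4a2, Col4a5, Col4a3 and Col7a1) had higher M than the 6 genes with 0 or 1, a description of 10 genes for which no test was made. Of these 10, Col4a3 and Col8a2 had A below 0, and the M of Col4a3 was within counting error of 0. Over the 11278 genes, 2.13% held 2 or more matches, and M was not compared by number of matches there. Col4a3 held 4 matches, all in the far part of a 3′ UTR of 3175 nt, and its M was 0.17. Col4a5 held 3, a number reached or passed by 47 of the 11278 genes, and its M was −0.23. Col7a1 held 2 in a 3′ UTR of 363 nt and had the highest M. Col8a2 and Col18a1 held 0, in 3′ UTRs of 2032 nt and 178 nt, and had M of −2.27 and −0.94. Taking the transcript with the longest 3′ UTR of each gene again gave 8 genes with a match, beside 15.2% of genes with A above 0, and Col4a1 then held 2. A match is a run of letters and does not show that a microRNA binds there.

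**Figure D5:**
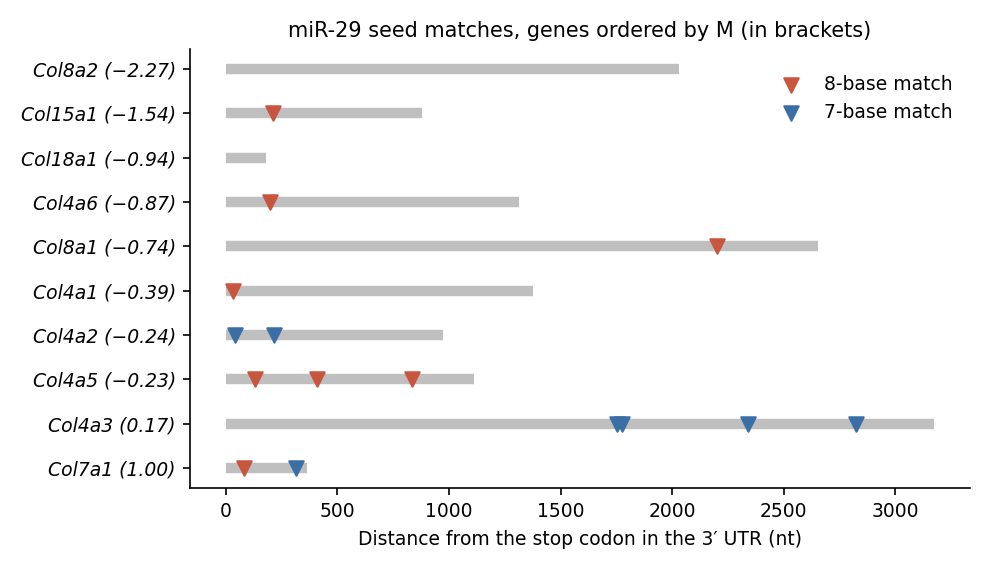
Position of miR-29 seed matches in the 3′ UTR (grey bar) of each gene, in nt from the stop codon, with 8-base matches in red and 7-base matches in blue. Genes are ordered by M, given in brackets, and the genes with 2 or more matches are the 4 lowest on the plot, with the highest M.

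Since VGLL3 is known to bind TEAD proteins, the TEAD core letters CATTCC were searched on both strands in RefSeq windows of 250 bases before to 50 after a start site. Of 10 windows for 9 of the genes, 2 held a match, beside 12.1% of the 11983 windows of genes with A above 0. In Col18a1 a pair of matches began 104 and 54 bases before an internal start site (window chr10:77113656-77113955), and in Col4a6 one began 5 bases before the start. Col4a1, Col4a2, Col8a1 and Col15a1 held none in these windows. These letters describe the windows and are no measure of binding. The study reports no effect of Tead1 knockdown on the expression of fibrotic genes in cardiac myofibroblasts.

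Markers of the labelled cell type were present in both libraries, with all 10 myofibroblast genes at A above 0 and Acta2, which encodes α-smooth muscle actin, at 3296 TPM in siCtrl against 3866 TPM in siVgll3. Of these 10, 4 were lower, namely Postn (696 TPM and 299 TPM, M −1.22), Col1a1, Col3a1 and Col1a2, and 2 were higher, Thy1 (M 0.72) and Tagln (M 0.52). Leukocyte markers summed to 14.96 TPM in siCtrl against 8.46 TPM in siVgll3, with Ptprc, which encodes CD45, at 0 reads in both, as were Adgre1, Itgam and Cd3e. Lyz2 was at 10.9 TPM and 3.13 TPM, and without it the sum was 4.03 TPM in siCtrl against 5.32 TPM in siVgll3, with Csf1r (M 0.50) and Cd14 (M 0.62) higher. Cardiomyocyte markers summed to 60.0 TPM and 10.4 TPM, all from Tnnt2, with Myh6, Myh7, Actn2, Ryr2 and Nppa at 0 reads in both. Schwann cell markers summed to 2.26 TPM and 2.02 TPM. What part these cells had in the collagen values was not tested.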

How the data were processed

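Libraries from mouse cardiac myofibroblasts treated with siCtrl or siVgll3 were made with the TruSeq Stranded mRNA LT kit and read on an Illumina NovaSeq instrument. Per the labels, FastQC, Trimmomatic, HISAT2, StringTie and the mm10 genome were used. Tool versions, the annotation release and the strand setting are not given in the sources used here. The authors deposited unnormalised counts of reads on each gene, in 1 table for both libraries. They also deposited the TPM (reads normalised to transcript length and library size) of 14158 genes, in 1 table per library, and 14149 of these genes gave an M. M and A were computed from TPM, with the limits M < −0.5 and A > 0. M had a 95% Clopper-Pearson interval from the counts, and its code was run on simulated counts. These held random sampling of reads only, with no PCR copies and no spread between cultures. The run therefore could not show whether the interval is wide enough for real libraries. No model across genes was fitted, since each condition had 1 library. edgeR 4.0.16 and DESeq2 1.42.0 (R 4.3.3) were used for scaling only, beside Python 3.11.15, SciPy 1.17.1 and matplotlib 3.10.9.

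The 10 genes, the lists and the motifs were chosen with earlier results of these data known, so no count is independent evidence. Named genes were the 10, Col4a4, Vgll3, and of each pathway list the 3 with the largest mean TPM and those with the lowest and highest M at A > 0. Marker genes were named after their values were seen, and 1 gene that the rule takes is not reported here. Positions came from RefSeq (GRCm38.p6), and 3′ UTRs from GENCODE vM21 (GRCm38), without the stop codon. Alternatives were CPM, TMM, size factors, pseudocounts, centring, other limits on A, M or reads, and sums without the leading genes. The search in the longest 3′ UTR and the marker sums without their highest gene were added after the data were seen. No proteins are printed, and Col4a3 had no promoter window.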

Additional observations from a re-analysis of the deposited data

How the results depend on the processing

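The direction of M was the same under all 60 alternatives computed for the 10 genes, and no alternative moved a gene across −0.5 or 0.5. The largest shift was that of Col8a2, to −0.68 with 1 TPM added, and Col7a1 went to 0.67 there. Between 4 and 5 genes were lower under the scalings, pseudocounts and filters, the fifth being Col8a2 where A was above 0 or not limited, and with a threshold of 1 on M, 1 was lower (Col15a1) and 0 were higher. With A > 2, 0 were higher. The median M was −0.51 with CPM, −0.52 with TMM, −0.52 with size factors, −0.53 with 1 TPM added, −0.52 when centred on the median of all genes, and −0.74 with A > 2. The summed TPM had an M of −0.67 without Col4a1 and Col4a2, −0.47 without Col4a1 and −0.37 as CPM. The Col4a1 to Col4a2 ratio in reads was 1.31 in siCtrl and 1.18 in siVgll3.

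No list's median changed sign. That of the receptors was −0.31 with CPM and −0.14 with 1 TPM added, that of the cross-linking genes −0.06 with CPM, and that of the proteases −0.05 with A > 2. CPM raised the median M of all genes by 0.05. No paired analysis was possible because there was 1 library per condition, and none was left out. Depth limits Col4a3, Col4a4 and Col8a2, whose counts were between 49 and 250 reads.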
